A study of Mus musculus with 26 samples.

Results

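Histone genes were followed in RNA-seq libraries of the choroid plexus (ChP), the epithelial tissue of the brain ventricles that secretes cerebrospinal fluid. Members were all genes whose symbol begins with a histone gene name (H1f, H2a, H2b, H3, H4 or Macroh2a followed by the letters and numbers of that family) and whose mean level in CPM (counts scaled to library size) was at least 0.2 in both Ctrl and SCNx. Of 90 genes with such a symbol, 38 were members. Of these, 27 were replication-type genes and 11 were put among the replacement variants. The lowest members were H4c12 (mean 0.283 CPM in Ctrl and 0.202 in SCNx) and H3c2 (0.387 and 0.231), and the nearest genes left out were H2bc11 (0.325 and 0.19) and H3c6 (0.179 and 0.165).

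The mice were adult males, and by the study's methods the KO mice were older than the Ctrl and SCNx mice. Ctrl mice (n = 12) were C57Bl6J animals after sham surgery, and SCNx mice (n = 12) were C57Bl6J animals in which the suprachiasmatic nucleus, the central clock of the brain, had been ablated. Mice of both groups were held in light and dark cycles and then in constant darkness, where 1 mouse of each group was killed every 4 h from CT0 to CT44, CT0 being the time at which the lights would have come on. The 4th ventricle ChP was pulled out with pincers, and the libraries were made with an mRNA kit after rRNA depletion and poly(A) enrichment. KO mice (n = 2, at ZT7 and ZT18, hours after lights on in a light and dark cycle) were FoxJ1-ERT2-Cre+/-; Bmal1fl/fl animals, called ChP-specific in the labels, fed a diet with 0.4 g/kg tamoxifen citrate to activate the Cre. FoxJ1 is a gene of ciliated cells, so the Cre is not restricted to the ChP by its promoter. Recombination was tested by the submitters in liver. The KO ChP was cut from frozen brain by laser capture, and its libraries were made with a low-input total RNA kit. The labels do not say whether poly(A) enrichment was also done for KO. By the study's methods the frozen KO samples had a lower average RNA integrity, and the KO mice were kept and killed at another institute. No mouse with the same genotype but without tamoxifen or Cre was analysed here. The genotype, tamoxifen, age, kit, dissection, light regime, RNA integrity and institute of the KO libraries cannot be told apart.

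Histones are the proteins around which DNA is wound: pairs of H2A, H2B, H3 and H4 form the nucleosome core, and H1 binds the linker between cores. Replication-type genes lie in clusters, have no introns and are transcribed mainly in S phase, when new DNA has to be packaged. Their mRNAs end in a conserved stem-loop, bound by the protein SLBP, in place of a poly(A) tail, although polyadenylated forms are also made from many of them in cells that do not divide. Replacement variants are expressed throughout the cell cycle, mostly as polyadenylated and often spliced mRNAs, and they are put into chromatin independently of replication. A poly(A)-enriched library therefore samples the replication-type genes only in part.

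The stem-loops are shown because they separate the classes and because they bear on what each library type could capture. GENCODE M21 transcripts, matched by Ensembl identifier for all 90 genes, were searched for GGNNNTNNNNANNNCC with a paired stem. A match was found in 21 of the 27 replication-type members and in 1 of the 11 replacement members, against 703 of all 55450 genes of that annotation (1.27%). The stem is in capitals and the loop in lower case.
H1f2, H1f3, H1f4, H2ac6, H2ac7, H2ac8, H2ac18, H2ac24, H2bc6, H2bc8, H2bc9, H3c2, H3c4 and H3c15: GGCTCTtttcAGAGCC
H2bc3: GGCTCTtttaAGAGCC
H4c4, H4c8 and H4c17: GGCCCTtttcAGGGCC
H4c9 and H4c14: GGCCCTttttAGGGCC
H4c11: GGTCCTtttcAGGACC
H2ax: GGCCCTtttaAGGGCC
The 6 replication-type members without a match were H1f5, H2bc4, H2bc21, H2bc23, H2bc24 and H4c12. Only annotated transcripts were searched, and that of H4c12 was 312 bases long. A missing match therefore does not show that a gene lacks the stem-loop. H2ax, whose product marks DNA breaks and which is known to be made in both mRNA forms, was the replacement member that had the stem-loop. The annotated transcript ran on for at least 100 bases after the stem-loop in 14 of the 21 replication-type members, for example 1153 bases in H1f4, 1861 in H2bc6 and 840 in H1f2. In H2ac18, H3c2 and H4c8 the transcript ended 35, 51 and 46 bases after it.

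Promoters are shown for 3 genes with a called rhythm and for H1f2, a gene at a high level without one, as the 130 bases before the RefSeq start on GRCm38.p6, with CCAAT and TATAAA in capitals. All 4 lie in the histone cluster of chromosome 13.
H1f4 (chr13:23622559-23622688, minus strand): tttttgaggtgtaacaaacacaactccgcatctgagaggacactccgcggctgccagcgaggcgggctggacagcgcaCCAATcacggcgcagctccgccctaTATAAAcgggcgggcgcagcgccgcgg
H3c2 (chr13:23752215-23752344, plus strand): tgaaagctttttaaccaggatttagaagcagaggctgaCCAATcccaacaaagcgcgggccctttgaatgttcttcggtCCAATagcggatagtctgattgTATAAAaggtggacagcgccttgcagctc
H4c11 (chr13:21734904-21735033, plus strand): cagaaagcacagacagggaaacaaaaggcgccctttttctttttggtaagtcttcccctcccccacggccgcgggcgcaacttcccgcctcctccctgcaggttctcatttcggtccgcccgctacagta
H1f2 (chr13:23738677-23738806, plus strand): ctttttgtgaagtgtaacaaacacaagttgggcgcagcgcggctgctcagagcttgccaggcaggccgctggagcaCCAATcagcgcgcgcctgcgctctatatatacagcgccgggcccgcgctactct
RefSeq windows from 250 bases before to 50 bases after the start were found for 23 replication-type members (24 windows) and 9 replacement members (9 windows). Searched on both strands, TATAAA stood in 66.7% of the replication-type windows, 11.1% of the replacement windows and 13.6% of all 32817 windows. CCAAT stood in 79.2%, 55.6% and 37.4%, and the octamer ATTTGCAT in 20.8%, 11.1% and 1.74%. CACGTG, the E-box bound by BMAL1 and CLOCK, stood in none of the replication-type windows, in 1 replacement window and in 7.15% of all windows. TTATGTAA, a D-box bound by DBP and its relatives, stood in 2 replication-type windows, in no replacement window and in 0.935% of all windows. Outside the 130 bases printed, the longer windows held TATAAA in H4c11 and TTATGTAA in H3c2. The other replication-type window with TTATGTAA was that of H2ac18, a gene without a called rhythm. These matches describe letters in short windows, which need not be bound.

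The libraries held 38751162 to 47335226 estimated counts in Ctrl, 41807000 to 49527614 in SCNx and 17425176 and 18059213 in KO. Levels are given as CPM after TMM scaling for Ctrl and SCNx, and as CPM of the library total for KO. Clock genes followed the labels of Ctrl and SCNx: Arntl, which encodes BMAL1, had a log2 amplitude of 2.24 in Ctrl (adjusted p = 2.12e-06) and 0.48 in SCNx (adjusted p = 0.269) in edgeR's quasi-likelihood test. Arntl was read at 10.6 and 9.36 CPM in the KO libraries against a Ctrl median of 10.7 CPM (2 to 39.8). These gene counts do not resolve the floxed exons, and they do not check the KO label. SCNx CT32 stood apart, with the highest summed neuron markers (483 CPM, SCNx median 142), the highest astrocyte markers (942 CPM, median 51.1) and the lowest ChP epithelium markers (106700 CPM, median 148700). Ctrl CT4 had the highest neuron (451 CPM) and astrocyte (707 CPM) markers of Ctrl, and hepatocyte genes stood at 2399 CPM in Ctrl CT16 and 11660 CPM in SCNx CT0 (group medians 4.52 and 7.65). Blood genes stood at 6609 CPM in SCNx CT44 (SCNx median 535), and granulocyte precursor genes at 40.5 CPM in SCNx CT4 (SCNx median 1.4). In bulk tissue, fewer cells of a type and less RNA per cell cannot be told apart.

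Per kilobase of the longest annotated transcript, the highest members in Ctrl were H2bc4 (93.7 ± 14.3 CPM per kb, SD, n = 12) and H2ac18 (85.8 ± 10.6), whose SDs overlapped. Below them stood H1f2 (68.4 ± 9.28) and the replacement genes H3f3a (67 ± 4.39) and H3f3b (62 ± 6.67), whose SDs also overlapped. H2az1 (43.5 ± 3.61) and H1f0 (39.1 ± 4.75) followed. H2bc6 (12.6 ± 2.91) and H3c15 (8.84 ± 2.08) were the next replication-type members, and 20 of the 27 lay below 4 CPM per kb. The ChP libraries thus held a few abundant replication-type transcripts and many at low levels. Copies of replication-type genes are nearly identical in coding sequence, so the division of reads between them by the quantifier is uncertain for each single gene, and sums are given beside them.

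Summed over the 27 replication-type members, the level in Ctrl ranged from 285 CPM at CT28 to 422 CPM at CT20, with a median of 339. CT20, CT24 and CT44 read 422, 405 and 418 CPM, and the other 9 libraries lay between 285 and 353 CPM. A 24 h cosine through the log2 sums had an amplitude of 0.20 ± 0.06 (SE, n = 12) with its peak at CT21.0. The 4 highest members, H2bc4, H1f2, H2ac18 and H2bc6, made up most of this sum. Without them, the other 23 members summed to between 32.6 CPM at CT28 and 68.8 CPM at CT20 (median 43.9), with an amplitude of 0.45 ± 0.07 and a peak at CT19.8. In this smaller sum CT20 (68.8 CPM) and CT44 (68.5 CPM) were the highest libraries of both cycles.

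**Figure D1:**
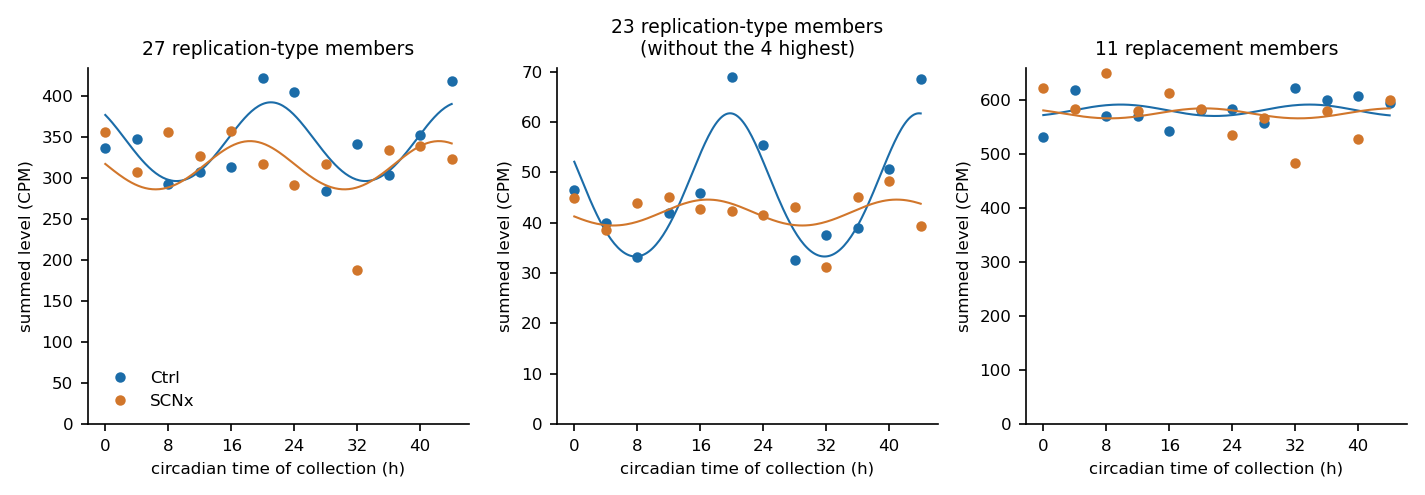
Summed level in CPM of the 27 replication-type members, of the 23 left without the 4 highest, and of the 11 replacement members against circadian time of collection, with 1 point per mouse and a 24 h cosine fitted to the log2 values of Ctrl and SCNx. In the middle panel the Ctrl points reach 68.8 CPM at CT20 and 68.5 CPM at CT44, while the SCNx points stay between 31.1 and 48.2 CPM.

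By family, the Ctrl sums of the H4 members (7 genes, amplitude 0.46 ± 0.07, peak CT20.6) and of the H3 members (3 genes, 0.45 ± 0.08, CT18.7) had larger amplitudes than that of the H2B members (8 genes, 0.29 ± 0.05, peak about CT20.5). The H1 sum (4 genes, 0.16 ± 0.07), of which H1f2 was the main part, peaked near CT0.3, and the H2A sum (5 genes, 0.11 ± 0.08) peaked at CT18.5. The differences between the families were not tested.

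Each gene was then tested for a 24 h rhythm in Ctrl with edgeR's quasi-likelihood test over 17066 genes, with Benjamini-Hochberg adjustment at 0.05. Of the 38 members, 11 passed, and all 11 were replication-type (11 of 27, 40.7%). Of all genes tested, 8.77% passed. At an unadjusted p under 0.05 there were 18 members (22.6% of all genes). The 11 genes spanned all 5 families, and their fitted peaks fell between CT17.85 and CT21.25, late in the subjective night. Of the 11, 10 peaked between CT18 and CT24, as did 40.7% of the 1496 genes called in all. Their log2 amplitudes ran from 0.27 to 0.96 (median 0.66).

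Among the linker histones, H1f4 and H1f3 passed. H1f4 read 3.21, 2.63, 1.75, 1.5, 3.39, 4.54, 3.68, 2.43, 2.30, 1.86, 3.42 and 4.80 CPM in Ctrl from CT0 to CT44. It was low at CT8 and CT12, high at CT20 and CT24, low again at CT28 to CT36 and highest at CT44. Its log2 amplitude was 0.66 ± 0.09 (SE) with a peak at CT21.0 (edgeR adjusted p = 0.000888). H1f3 ranged from 1.37 CPM at CT28 to 6.39 CPM at CT44 (median 3.49), with an amplitude of 0.74 ± 0.18 (edgeR adjusted p = 0.015).

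Of the core histones, H2bc6 was the member most abundant among those that passed. It read 33.2, 26.9, 22.4, 26.3, 31.0, 41.8, 41.1, 26.1, 27.1, 25.3, 34.6 and 44.0 CPM in Ctrl from CT0 to CT44. The libraries at CT20, CT24 and CT44 stood above 41 CPM and all others below 35 CPM. Its amplitude was 0.41 ± 0.05 with a peak at CT20.6 (edgeR adjusted p = 0.000639). The other H2B genes called were H2bc9 (0.455 to 1.62 CPM, median 0.741, amplitude 0.70 ± 0.15, adjusted p = 0.00567) and H2bc21 (4.27 to 8.65 CPM, median 6.6, amplitude 0.27 ± 0.09, adjusted p = 0.041). Among H2A genes, H2ac7 passed (0.539 to 2.50 CPM, median 1.16, amplitude 0.74 ± 0.18, adjusted p = 0.03).

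Among H3 genes, H3c2 and H3c15 passed. H3c2, at a low level, read 0.328, 0.117, 0.279, 0.232, 0.539, 0.837, 0.455, 0.195, 0.242, 0.225, 0.524 and 0.682 CPM in Ctrl from CT0 to CT44. Its values from CT16 to CT24 and from CT40 to CT44 all lay above those of the other 7 libraries. Its amplitude of 0.96 ± 0.17 was the largest of the 11 (peak CT18.9, edgeR adjusted p = 0.00318). H3c15 ranged from 5.68 CPM at CT28 to 12.3 CPM at CT44 (median 9.04, amplitude 0.40 ± 0.09, adjusted p = 0.0179). The H4 genes that passed were H4c8 (2.21 to 5.74 CPM, median 3.20, amplitude 0.51 ± 0.08, adjusted p = 0.026), H4c11 (0.727 to 1.80, median 1.07, 0.48 ± 0.09, adjusted p = 0.0174) and H4c14 (0.194 to 1.31, median 0.871, 0.85 ± 0.19, adjusted p = 0.021). H4 genes encode the same or nearly the same protein from separate loci.

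**Figure D2:**
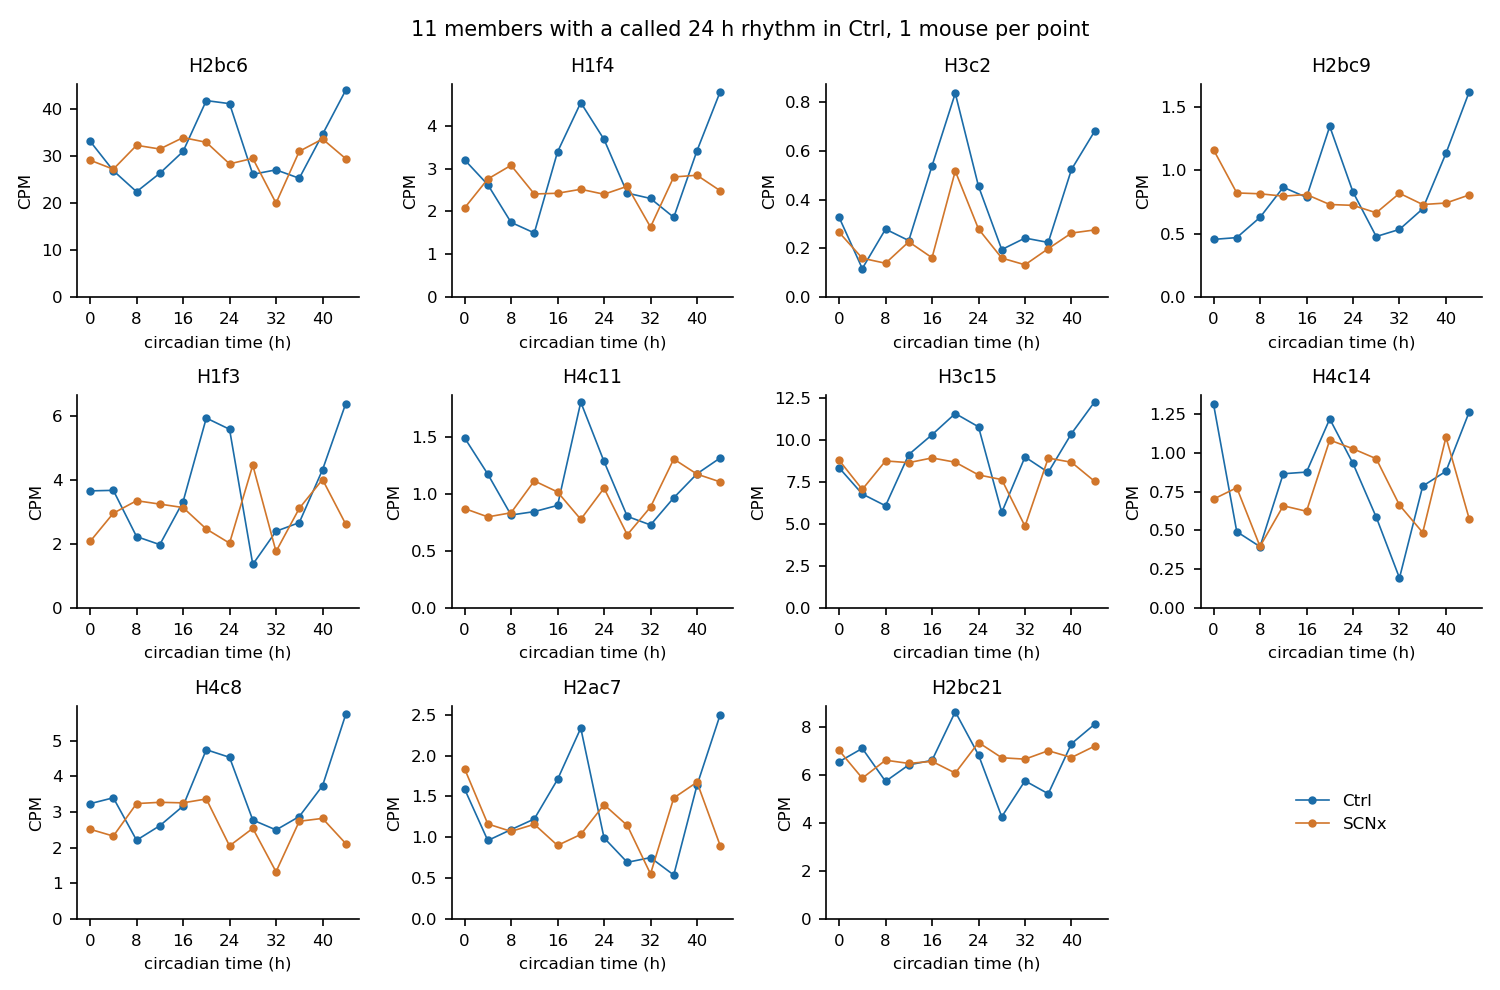
CPM of the 11 members with a called rhythm in Ctrl against circadian time, with 1 mouse per point and lines joining the mice of Ctrl and of SCNx. Ctrl points are highest at CT20 or CT44 in 10 of the 11 genes, and dividing the CT20 and CT44 mean by the CT8 and CT32 mean gives, over the 11 genes, a Ctrl median of 2.31 and an SCNx median of 1.19.

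Ctrl CT20 or Ctrl CT44 was the highest Ctrl library in 21 of the 27 replication-type members. How many of all genes were highest in either library was not counted. Without Ctrl CT44, 5 members passed (5.37% of all genes), and H1f3, H2ac7, H2bc21, H3c15, H4c8 and H4c14 did not. The count was 6 without Ctrl CT20 (5.77% of all genes), 7 without Ctrl CT8 (6.09%) and 7 without Ctrl CT32 (7.04%), and it was 14 without SCNx CT32 (12.8%). Without a filter on low counts it was 5 (2.77%). In these settings the calls over all genes fell and rose with those of the members. Without Ctrl CT16 they did not, as 13 members passed while the share of all genes was 8.3%. H1f4, H2bc6 and H3c2 were called in each of the fits that tested them (33, 33 and 32). RNAs that lack a poly(A) tail were also uneven between libraries. The 18S rRNA Rn18s had its highest Ctrl value at CT44 (69304 CPM) and its lowest at CT20 (31414 CPM, Ctrl median 39218), and the RNase P RNA Rpph1 read 0.511 CPM at CT44 and 0.0258 at CT20 (median 0.0799). The Cajal body RNA Scarna2 was also at its highest Ctrl value at CT44 (0.438 CPM, 0.129 at CT20, median 0.196), while Scarna13 was not (0.0243 at CT44, 0.0516 at CT20, median 0.0472). In Ctrl CT44 most of these tailless RNAs and the replication-type histones were high together. In Ctrl CT20 the histones were high, with Rn18s, Rpph1 and Scarna2 below their medians and Scarna13 just above its own. Except for Rn18s, these tailless RNAs were near the floor in Ctrl, with few counts per library. The part of these RNAs in the histone values was not tested. Rn18s had no called rhythm in Ctrl (edgeR adjusted p = 0.946).

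The other 16 replication-type members included the 3 most abundant. H2bc4 ranged from 90.7 CPM at CT8 to 143 CPM at CT44 (median 104.1), with an amplitude of 0.25 ± 0.05 and a peak at CT20.6, and it missed the threshold (edgeR adjusted p = 0.0541). H1f2 ranged from 87.8 CPM at CT16 to 132 CPM at CT24 (amplitude 0.16 ± 0.07, adjusted p = 0.576), and H2ac18 from 37.3 CPM at CT28 to 59.7 CPM at CT20 (amplitude 0.09 ± 0.08, adjusted p = 0.841). All 3 had their lowest SCNx value at CT32 (62.2, 50.8 and 23.6 CPM). H2bc24 ranged from 0.492 CPM at CT4 to 5.20 CPM at CT44 (amplitude 0.97 ± 0.31, peak CT19.7, adjusted p = 0.0989), and H3c4 from 0.445 CPM at CT4 to 1.95 CPM at CT20 (amplitude 0.64 ± 0.18, peak CT20.2, adjusted p = 0.0577). Both peaked within the span of the genes that passed. Over all 27 replication-type members, 20 had a fitted Ctrl peak between CT18 and CT24, against 29.5% of all genes tested, and the median amplitude was 0.46 against 0.14 for all genes. Amplitudes of genes at low counts are inflated by noise, and many members are such genes.

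The 42 replication-type genes that fell below the CPM limit summed to between 1.46 CPM and 4.47 CPM in Ctrl (median 2.21). They were highest at CT44, with an amplitude of 0.60 ± 0.11 and a peak at CT20.3. In SCNx the same 42 genes summed to 1.57 to 2.42 CPM (median 1.94, amplitude 0.16 ± 0.06). The genes outside the rule thus peaked at a like time to the 23 lower members.

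After ablation of the suprachiasmatic nucleus, no histone member had a called rhythm. In SCNx 0 of 38 members passed at an adjusted p under 0.05, as did 0% of all genes tested in edgeR. Limma-trend also called 0 members and 0 genes, while DESeq2 called 0 members but 4.69% of all genes. At an unadjusted p under 0.05 there were 3 members (H3c2, H1f10 and H2ac6), against 16.5% of all genes. H3c2, called in Ctrl with a peak at CT18.9, had an SCNx amplitude of 0.65 ± 0.14 (SE) with a peak at CT19.9 (edgeR adjusted p = 0.134). A difference of its rhythm between the groups was not called (edgeR adjusted p = 0.689). The summed 27 replication-type members in SCNx ranged from 188 CPM at CT32 to 357 CPM at CT16 (median 325). The 11 libraries other than SCNx CT32 lay between 291 and 357 CPM, inside the Ctrl range. The fitted amplitude was 0.13 ± 0.10, and 0.06 without SCNx CT32. For the 23 lower members the amplitude was 0.09 ± 0.07, with libraries from 31.1 to 48.2 CPM.

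The 11 genes called in Ctrl had log2 amplitudes of 0.03 to 0.65 in SCNx (median 0.17), each smaller than in Ctrl. The mean of CT20 and CT44 divided by the mean of CT8 and CT32 ran from 1.46 to 4.21 in Ctrl over these genes (median 2.31) and from 0.94 to 2.92 in SCNx (median 1.19). As the 11 were chosen on Ctrl, a smaller SCNx amplitude is partly built in. Over all 27 replication-type members, 25 had the larger amplitude in Ctrl, against 52.5% of all genes and 7 of the 11 replacement members. The comparison of the rhythms themselves, cosine terms of SCNx against Ctrl in the same edgeR fit, was passed by 1 member, H1f4 (adjusted p = 0.0388), against 1.8% of all genes. At an unadjusted p under 0.05 there were 9 members (14.8% of all genes), 8 of them replication-type. H1f4 read 2.08, 2.76, 3.08, 2.41, 2.43, 2.52, 2.40, 2.59, 1.64, 2.81, 2.85 and 2.48 CPM in SCNx from CT0 to CT44. The SCNx values lay within the Ctrl range of 1.5 to 4.80 CPM, with no high point at CT20 or CT44 (amplitude 0.06 ± 0.10). This call held in 13 of 32 fits and was lost in 17 of the 24 fits that left out a library, Ctrl CT20, Ctrl CT44 and SCNx CT8 among them, with adjusted p between 0.00204 and 0.15 over all fits. DESeq2 called 3 members, H2bc6 among them (adjusted p = 0.0357), with 3.61% of all genes, and without SCNx CT32 edgeR called 4, with 2.96% of all genes. For the other 10 genes rhythmic in Ctrl, a difference from SCNx was not shown.

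**Figure D3:**
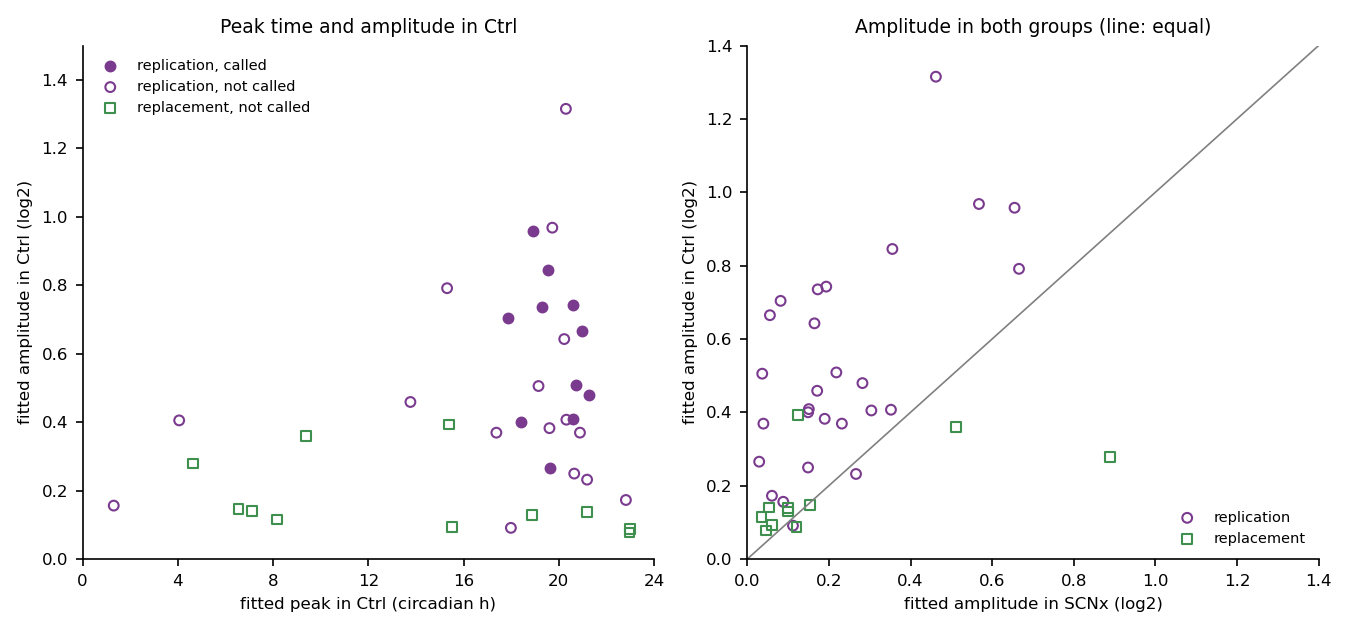
Left, fitted peak time in circadian hours and log2 amplitude of each member in Ctrl, filled where the rhythm was called. Right, log2 amplitude in Ctrl against SCNx, with a line of equality. Filled points lie between CT17.85 and CT21.25, and 25 of the 27 replication-type members lie above the line.

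No member passed the test of the mean level over all times, SCNx against Ctrl. In edgeR's quasi-likelihood test 0 of 38 members passed (lowest adjusted p = 0.477), 0% of all genes passed, and DESeq2 (14 of all genes called) and limma-trend (0 of all genes) called 0 members. At an unadjusted p under 0.05 there were 5 members, all lower in SCNx and all replication-type, against 9.23% of all genes. These were H1f5 (log2 change -0.28 ± 0.12, SE), H2ac8 (-0.48 ± 0.22), H3c2 (-0.74 ± 0.29), H4c4 (-0.45 ± 0.20) and H4c8 (-0.40 ± 0.16). The estimate was below 0 in 22 of 27 replication-type members and in 43.5% of all genes, with medians of -0.17 and 0.02. The summed replication-type level was 318 ± 45.7 CPM in SCNx and 344 ± 48 CPM in Ctrl (SD, n = 12 each), a log2 ratio of -0.11, which came to -0.06 without SCNx CT32. These groups overlapped over most of their range, and the members share the same libraries, so their common direction is not independent evidence gene by gene.

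None of the 11 replacement members had a called rhythm in Ctrl with edgeR over all 24 libraries, and 1, Macroh2a1, was under an unadjusted p of 0.05. DESeq2 and limma-trend also called 0. Without Ctrl CT32, Macroh2a1 was called in edgeR, both for a rhythm in Ctrl (adjusted p = 0.018) and for a difference in rhythm (adjusted p = 0.0403). Their summed level ranged from 531 CPM at CT0 to 622 CPM at CT32 in Ctrl (median 583) and from 483 CPM at CT32 to 651 CPM at CT8 in SCNx (median 581). The Ctrl amplitude was 0.03 ± 0.03 and the SCNx amplitude 0.02 ± 0.05. The log2 ratio of SCNx to Ctrl was -0.01. The SCNx libraries spanned the whole Ctrl range, and SCNx CT32 was again the lowest.

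H3f3a and H3f3b encode the same H3 replacement protein, which is laid down at active genes and at telomeres. H3f3a read 170.2 to 211 CPM in Ctrl (median 188) and 151 to 214 in SCNx (median 187), with a Ctrl amplitude of 0.09 ± 0.03 (edgeR adjusted p = 0.37). H3f3b read 132 to 189 CPM (median 154) and 124 to 189 (median 157), with an amplitude of 0.14 ± 0.05 (adjusted p = 0.345). For both genes the groups overlapped. H3f3c, annotated as a processed pseudogene, read 4.72 to 10.5 CPM in Ctrl (median 6.15, adjusted p = 0.256), and reads could be shared with its parent genes. H3f3aos, an RNA antisense to H3f3a and not a histone mRNA, matched the symbol rule and read 0.202 to 1.2 CPM (median 0.44, adjusted p = 0.817). The strand setting of the counting is not given in the sources used here, so its reads cannot be told apart from those of H3f3a.

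H2az1 and H2az2 encode the H2A variant found at promoters. H2az1 ranged from 39.6 to 52.1 CPM in Ctrl (median 46.7, edgeR adjusted p = 0.495) and from 42.5 to 61.4 in SCNx (median 47.4). H2az2 ranged from 21.2 to 29.2 CPM in Ctrl (median 24.0, adjusted p = 0.264) and from 18.9 to 27.5 in SCNx (median 23.1). H2ax read 4.29 to 6.62 CPM in Ctrl (median 5.16, adjusted p = 0.587) and 3.68 to 6.34 in SCNx (median 4.99), so the replacement gene that carries a stem-loop was also without a called rhythm. The linker variant H1f0, typical of cells that have stopped dividing, read 67 to 99.0 CPM in Ctrl (median 81.3, adjusted p = 0.587) and 55.6 to 97.5 in SCNx (median 78.4). H1f10 read 0.837 to 2.13 CPM in Ctrl (median 1.19, adjusted p = 0.464). Macroh2a1 and Macroh2a2 encode large H2A variants of silent chromatin. Macroh2a1 kept between 59.5 and 69.5 CPM in Ctrl (median 65.2, amplitude 0.08 ± 0.03, adjusted p = 0.114) and between 59.3 and 68.4 in SCNx (median 64.8). Macroh2a2 read 4.75 to 6.81 CPM in Ctrl (median 5.57, adjusted p = 0.365) and 4.34 to 7.01 in SCNx (median 5.66).

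Genes of S phase and proliferation were followed for comparison. Of 22 tested, 1 was rhythmic in Ctrl, the replication helicase subunit Mcm6 (amplitude 0.25, peak CT9.4, edgeR adjusted p = 0.0167), against 8.77% of all genes. In SCNx 0 were rhythmic, and 0 differed in rhythm or level. At an unadjusted p under 0.05 these counts were 3, 3 and 3, against 16.5%, 14.8% and 9.23% of all genes. The summed list ranged from 162 to 181 CPM in Ctrl and from 160 to 204 in SCNx, where SCNx CT4 was the highest. Its Ctrl amplitude was 0.04 ± 0.02 with a peak at CT8.1. The proliferation marker Mki67 averaged 0.986 CPM in Ctrl and 1.91 in SCNx (edgeR adjusted p = 0.482 for the level), and Top2a, the topoisomerase of dividing cells, 0.626 and 1.26 (adjusted p = 0.389).

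Of 16 genes that transcribe or process histone mRNAs, 4 were rhythmic in Ctrl. These were Sympk, a scaffold of the cleavage complex (amplitude 0.14, peak CT21.5, edgeR adjusted p = 0.00608), Ncbp2 of the cap-binding complex (0.12, CT18.9, adjusted p = 0.0154), its partner Srrt (0.18, CT20.9, adjusted p = 0.0201) and Cpsf3, the nuclease that cuts the histone pre-mRNA (0.15, CT9.4, adjusted p = 0.0383). Slbp, the stem-loop binding protein, had an amplitude of 0.11 (adjusted p = 0.306), and Npat, the activator of histone gene transcription, 0.12 (adjusted p = 0.358). Of 25 chaperone and deposition genes, 3 were rhythmic: Chaf1a, a subunit of the replication-coupled chaperone CAF1 (0.30, CT8.7, adjusted p = 0.0076), Vps72, a chaperone of the H2A promoter variant (0.18, CT21.3, adjusted p = 0.0094), and Asf1a, which hands over H3 and H4 (0.15, CT7.9, adjusted p = 0.0302). In edgeR 0 genes of either list were rhythmic in SCNx or differed in rhythm or level. At an unadjusted p under 0.05 these counts were 4, 4 and 1 of the 16 and 2, 5 and 5 of the 25. The shares of all genes were 16.5%, 14.8% and 9.23%. The shares, 4 of 16 and 3 of 25, stand against the 8.77% of all genes.

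In the KO libraries single replication-type genes stood above or below Ctrl by wide margins, while the sum over members lay inside the Ctrl range. Each time point is 1 mouse, so no test was made. The 27 replication-type members summed to 348 CPM at ZT7 and 324 CPM at ZT18, inside the Ctrl range of 279 to 429 CPM on the same scale. The 23 lower members summed to 117 and 116 CPM, above every Ctrl library (31.6 to 70.0 CPM). The 4 highest summed to 231 and 209 CPM, below every Ctrl library (247 to 359 CPM). These 4 are the highest by level in Ctrl and include H2ac18. Its near-identical copy H2ac19, no member, read 60.8 and 55.6 CPM in KO against 0.0378 in Ctrl. How far the assignment of reads between such copies entered the sum of the 4 was not tested. Members were chosen by their level in Ctrl and SCNx, and the sum over all 69 replication-type genes was 450.2 CPM at ZT7, above every Ctrl library (280.5 to 433 CPM), and 410.2 CPM at ZT18, inside that range. Among all genes tested, the median ratio of KO to the Ctrl mean was 0.824 at ZT7 and 0.89 at ZT18.

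In both KO libraries 10 members were at least 2-fold above the Ctrl mean (26.3% of the 38, against 10.5% of all genes tested). Of these, 9 were replication-type. H4c4 read 15.8 and 10.8 CPM at ZT7 and ZT18 against a Ctrl mean of 0.374 (ratios 42.2 and 28.9), and H1f4 read 44.5 and 47.0 CPM against 2.95 (15.1 and 15.9). H4c17 read 2.41 and 1.94 CPM against 0.327, H2ac24 2.98 and 2.49 CPM against 0.563, and H4c12 1.03 and 1.66 CPM against 0.283. The other 4 were H1f3, H3c2, H4c8 and H4c14, at 2.67 to 3.86 times the Ctrl mean. The 10th member was the pseudogene H3f3c (35.4 and 23.4 CPM against 6.79). For each of these 10 members both KO values stood above the highest Ctrl library, which read 4.80 CPM for H1f4 and 0.632 CPM for H4c4 after TMM scaling.

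In both KO libraries 5 members were at least 2-fold below the Ctrl mean (13.2% of the 38, against 11.1% of all genes), and these were also replication-type. The count was 3 with TMM scaling over all 26 libraries (7.71% of all genes) and 3 against the Ctrl mice nearest in time (9.56%). H2bc6 read 12.6 and 11.5 CPM against 31.6, H3c15 2.75 and 3.65 CPM against 9.01, H4c9 2.01 and 2.10 CPM against 4.35 and H2bc9 0.402 and 0.332 CPM against 0.82. H2bc23 had 0 counts in both, as in 4 of the 12 Ctrl libraries (CT0, CT8, CT24 and CT44), so the KO values lay inside the Ctrl range of 0 to 2.61 CPM. Against the Ctrl mean of 0.777 CPM this was at least 4.51-fold lower at ZT7 and at least 4.68-fold lower at ZT18 with 3 counts per library as the floor (counting error only). H2bc6 and H3c15, rhythmic in Ctrl, were thus low in KO while H1f4 and H4c8, also rhythmic in Ctrl, were high.

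**Figure D4:**
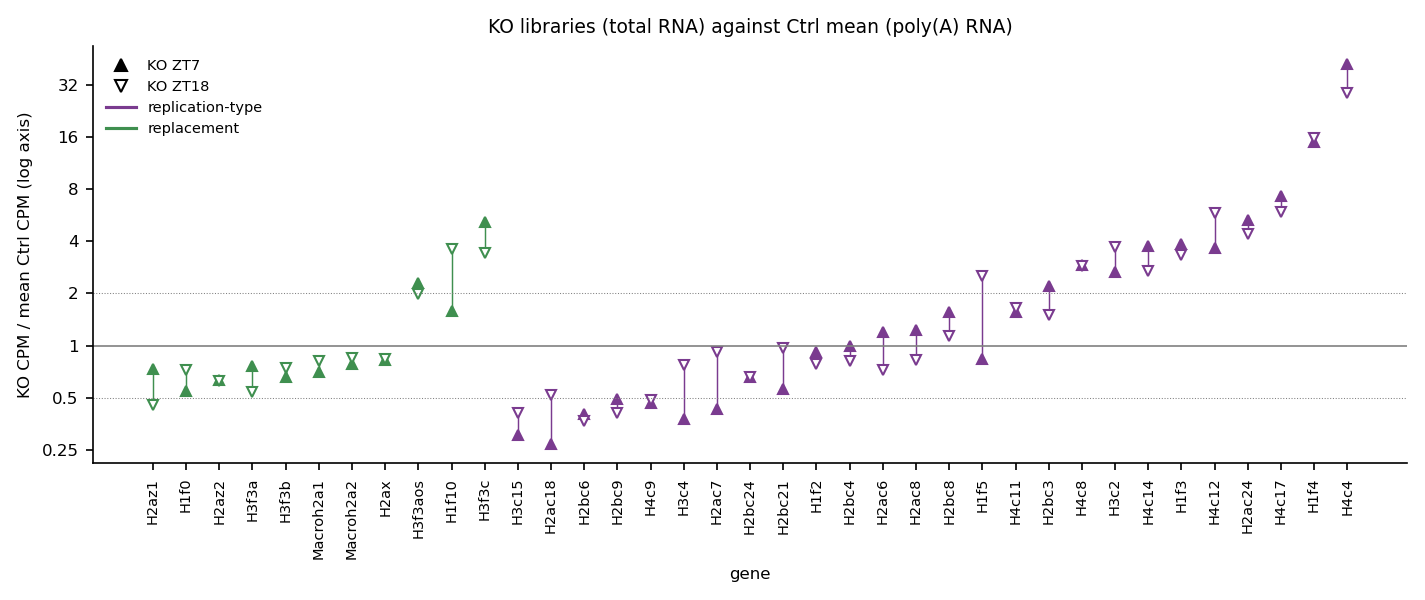
Ratio of the KO level to the mean Ctrl level on a log axis for the 37 members with counts in KO, upward triangles for ZT7 and open downward triangles for ZT18, by class. Replication-type genes spread from 0.27 to 42.2, and 8 of the 11 replacement members lie below 1 in both libraries.

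By family, the direction depended in part on which genes entered. The H4 members summed to 36.2 and 30.5 CPM in KO (3.38 and 2.84 times the Ctrl mean) and the H1 replication-type members to 157 and 145 CPM (1.37 and 1.27 times). The H2A members summed to 20.4 and 31.7 CPM (0.37 and 0.58 times), the H2B members to 131 and 111 CPM (0.85 and 0.73) and the H3 members to 4.25 and 6.04 CPM (0.40 and 0.57). With the genes left out by the CPM limit added, the H2A genes summed to 95.8 and 99.2 CPM (1.73 and 1.79 times the Ctrl mean) and the H3 genes to 14 and 15.6 CPM (1.26 and 1.405), so both turned from below to above Ctrl. The H4 genes (4.16 and 3.12), the H1 genes (1.38 and 1.28) and the H2B genes (0.88 and 0.74) kept their direction. H2ac18 read 13.5 and 26 CPM in KO against 50.2 in Ctrl, while its near-identical neighbour H2ac19, no member and named after its values were seen, read 60.8 and 55.6 CPM against 0.0378. Together the pair held 50.3 CPM in Ctrl and 74.3 and 81.6 CPM in KO, and whether the transcripts or only the assignment of reads between the copies differed was not tested. All 42 replication-type genes left out by the CPM limit summed to 102 and 86.3 CPM in KO, against 1.4 to 4.31 CPM in the Ctrl libraries.

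Several RNAs known to lack a poly(A) tail were also higher in KO than in Ctrl, but Rn18s was not, and Terc and Rnu7 had no counts. Rpph1 read 2085.6 and 590 CPM in KO against at most 0.511 in Ctrl, Scarna2 25.8 and 14.4 CPM against at most 0.438, and the Y RNA Rny3 11.4 and 7.31 CPM against at most 0.07. Rn18s was lower in KO (5771 and 9688 CPM) than in any Ctrl library. The replacement members, most of which have poly(A) tails, summed to 433 and 404 CPM in KO against 519 to 634 CPM in Ctrl. Astrocyte markers summed to 784 and 929 CPM and oligodendrocyte markers to 307 and 446 CPM in KO, against Ctrl medians of 55.7 and 73.9 CPM, and ChP epithelium markers to 86750 and 82400 CPM against 142200 to 167500 CPM in Ctrl. The part of the library kit, of RNA integrity, of these other cells and of the Bmal1 deletion in the KO values was not tested. With these libraries they cannot be told apart.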

How the data were processed

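The authors deposited estimated counts per gene, made with Salmon in the nf-core/rnaseq workflow on GRCm39 with Ensembl genes and not scaled, for 24 Ctrl and SCNx libraries and 2 KO libraries. The submitters' processing notes name cutadapt 3.4, STAR, Salmon 1.9.0, SAMtools 1.16.1 and StringTie 2.2.1. The counts were rounded (13.7% were not whole), and the 17066 of 55416 genes with a mean of at least 0.2 CPM in Ctrl and in SCNx were tested. The 24 Ctrl and SCNx libraries were fitted with edgeR 4.0.16 (TMM, quasi-likelihood F test), with a mean and 24 h cosine and sine terms for each group. The level was tested with group alone, and p-values were adjusted by Benjamini-Hochberg over all genes tested.

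Each library is 1 mouse and each time point has 1 mouse per group, so the spread around the curve served as error. No 2 libraries held identical values. Amplitudes of single genes come from the edgeR fit. Their standard errors come from the residuals of a separate least-squares fit to log2 CPM with a small added count. These standard errors are therefore approximate for genes at low counts. For sums, the amplitude and its standard error come from the same least-squares fit to log2 values. Replication-type genes were H1f1 to H1f6 and the H2ac, H2bc, H2bu, H3c, H4c and H4f symbols. Sums over members have no p-value, and KO entered no test. DESeq2 1.42.0, limma 3.58.1, other filters and leaving out libraries were the alternatives, and the fit was tested on simulated data. Genes named with full values were those passing a test, the 5 replication-type members with the highest mean CPM, all replacement members, H2bc24 and H3c4, the 5 largest KO ratios and the gene with the smallest p of each list. Other list genes and the RNAs without a tail were named after their values were seen. Members and lists were chosen with earlier results of these data known.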

Additional observations from a re-analysis of the deposited data

Results flagged for a closer look

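The rhythm of H1f4 was flagged because the test of the difference between groups passed (edgeR adjusted p = 0.0388 for the cosine terms of SCNx against those of Ctrl). H1f4 had a log2 amplitude of 0.66 ± 0.09 in Ctrl and 0.06 ± 0.10 in SCNx (SE, n = 12 each). The call was lost in 17 of 24 fits that left out 1 library.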

How the results depend on the processing

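The count of members rhythmic in Ctrl (11) was 5 without a filter on low counts and between 5 and 14 when each library was left out. It ran from 8 to 15 under all other alternatives, 15 with DESeq2. The count differing in rhythm (1) was 3 with DESeq2, 0 with no filter, 0 without Ctrl CT16 and SCNx CT0, 4 without Ctrl CT4 and SCNx CT32, and between 0 and 4 when each library was left out. The counts rhythmic in SCNx and differing in level were 0 under every alternative run, the latter also with circadian time as a block. Members at least 2-fold higher in KO numbered 4 at a 4-fold limit, and those at least 2-fold lower (5) numbered 3 with TMM over all 26 libraries, 1 at a 4-fold limit and 3 against the Ctrl mice nearest in time. The amplitude of the summed replication-type genes in Ctrl (0.20) was 0.45 (0.446) without the 4 highest members, an alternative chosen after seeing the data, and between 0.178 and 0.245 when each Ctrl library was left out. The same ranges were 0.0574 to 0.198 in SCNx, 0.0137 to 0.0376 and 0.0147 to 0.0679 for the replacement sums in Ctrl and SCNx, -0.135 to -0.06 for the log2 ratio of the replication-type sums and -0.0285 to 0.00976 for that of the replacement sums. Of 836 adjusted p-values of single genes under alternatives, 766 kept their side of 0.05, 55 lost the call and 15 gained it. The causes were not tested. Calls over all genes moved with several of these settings and stand beside the counts in the results above. H2bc23, H4c12 and H4c17 had 0 counts in at least 1 Ctrl library, where a lower level cannot be seen at this depth.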
